A study of Mus musculus with 4 samples.

Results

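The genes described here are 8 members of the dystrophin-glycoprotein complex, *Dmd*, *Utrn*, *Dag1*, *Sgca*, *Sgcb*, *Sgcd*, *Sgce* and *Dtna*, chosen by name from the 32285 features of the count tables. Single-cell transcripts were measured in leg muscles of mouse fetuses at embryonic day 18.5. There were 2 wild-type (WT) libraries and 2 in which *SYISL* was knocked out (KO), with both genotypes from the same litter. The *SYISL* transcript is long and non-coding and overlaps an intron of *Synpo2*. No feature is named *SYISL*, so its loss was not read under that name. The number of fetuses per library is not stated, so replicate spread may be partly technical. The tissue was dissociated with trypsin and passed through a 40 µm strainer.

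The complex links the actin cytoskeleton of a muscle cell to its basement membrane. Dystrophin (*Dmd*) or its autosomal paralogue utrophin (*Utrn*) binds actin on the inner side and dystroglycan (*Dag1*) in the membrane, and dystroglycan binds laminin outside through sugar chains built by dedicated enzymes. Sarcoglycans stand beside dystroglycan as a group of transmembrane proteins in which ε-sarcoglycan (*Sgce*) is a paralogue of α-sarcoglycan (*Sgca*), while α-dystrobrevin (*Dtna*) binds dystrophin in the cytoplasm and recruits syntrophins. Loss of *Dmd* causes Duchenne muscular dystrophy, and loss of *Sgca*, *Sgcb* or *Sgcd* causes limb-girdle muscular dystrophies.

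After filtering, 36969 of 41741 cell barcodes remained, with 8177 to 10461 cells per library and medians of 9118 to 11427 unique molecular identifiers (UMIs, 1 per captured transcript) per cell. Cells were clustered without the 8 members and 33 further genes of the pathway among the variable genes, and clusters were called "-like" from marker genes. This gave 18679 cells like fibro-adipogenic progenitors (FAPs), the connective tissue progenitors of muscle, and 6731 myogenic-like cells. The other classes were chondrocyte-like (2318 cells), tenocyte-like (2275), glial-like (1822), smooth muscle or pericyte-like (1746), macrophage-like (1117), endothelial-like (1343), mast-like (286) and neutrophil-like (214), and 438 cells stayed unnamed. Myogenic-like cells were divided into 3583 progenitor-like, 1940 cycling, 1128 myoblast-like and 80 myotube-like cells. WT libraries held 25 and 11 of the myotube-like cells and KO libraries 13 and 31, with median UMIs per cell of 3985, 4767, 11479 and 10162 in that order. *Xist*, the X-inactivation transcript, gave 131038 UMIs in KO replicate 2 and at most 5 in each other library. That library may therefore differ in sex from the rest, which the sample titles do not give. *Dmd* is X-linked. Each main KO to WT comparison includes this difference between libraries, and its part was not tested. The summed level of 9 myogenic markers was 2479 to 2776 CPM in myogenic-like cells and 48.4 to 82.6 CPM in FAP-like cells. From 15 to 27 kept barcodes were shared by a pair of libraries.

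The unit of level is CPM, a gene's UMIs per 1000000 UMIs of the same cells in 1 library, with mean ± SD over 4 libraries. CPM are not scaled to transcript length, so each gene is compared between classes and not with another gene. The classes were made from the same cells, so differences between classes are described without a test.

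*Dmd* was high in 3 kinds of cells, myogenic-like, glial-like and smooth muscle or pericyte-like. In glial-like cells it stood at 1041 and 874 CPM in WT and 999.6 and 749 CPM in KO libraries. In myogenic-like cells it stood at 410.2 and 367 CPM in WT and 357 and 312 CPM in KO libraries. In smooth muscle or pericyte-like cells it stood at 364 and 302 CPM in WT and 326 and 279 CPM in KO libraries. No library of these 3 classes came near the FAP-like cells, which stood at 42.1 and 38.2 CPM in WT and 41.2 and 38.6 CPM in KO libraries. The mean log2 ratio to FAP-like cells was 4.51 ± 0.16 in glial-like, 3.17 ± 0.13 in myogenic-like and 2.98 ± 0.11 in smooth muscle or pericyte-like cells. Tenocyte-like, chondrocyte-like, endothelial-like and mast-like cells had means of 44.3 to 49.0 CPM, with library ranges that overlapped that of FAP-like cells in each class, and macrophage-like cells had the lowest mean, 18.4 ± 13.6 CPM.

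**Figure D1:**
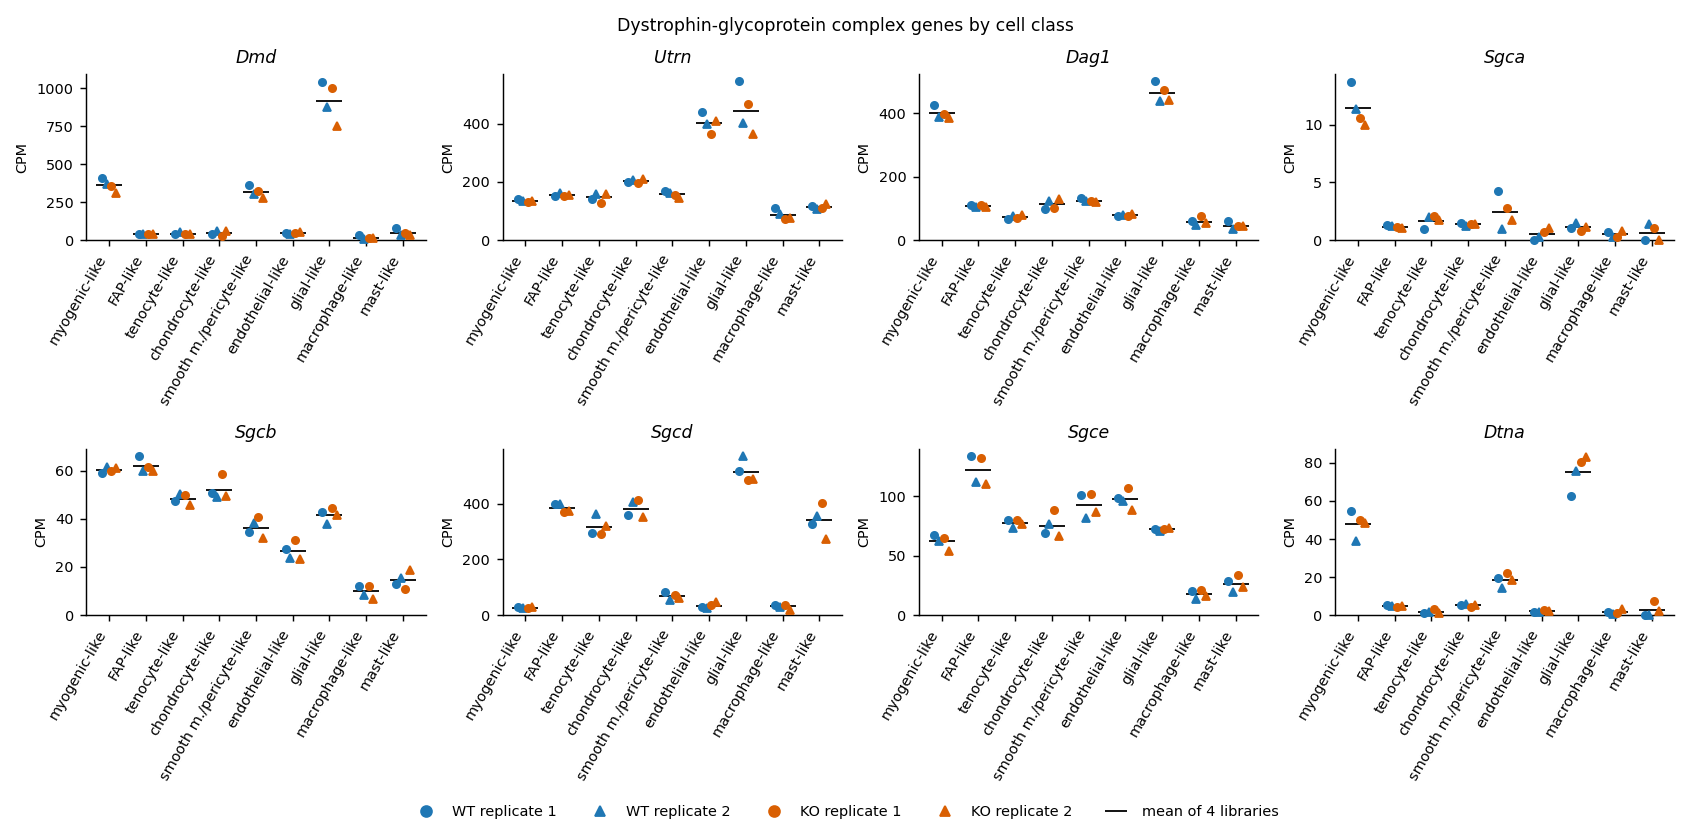
Level of each member by cell class. The vertical axes are CPM from 0, points are the 2 WT and 2 KO libraries, and black dashes are means of the 4 libraries. *Dmd*, *Dag1* and *Dtna* stand highest in glial-like and myogenic-like cells, *Sgca* in myogenic-like cells, *Utrn* in glial-like and endothelial-like cells, and *Sgcd* is low in myogenic-like cells.

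*Utrn*, which occupies the same place as dystrophin in many cells outside muscle, had a different order. It was 440.3 and 398 CPM in WT and 364 and 407 CPM in KO libraries in endothelial-like cells. Glial-like cells ranged over 546 and 401 CPM in WT and 467 and 363 CPM in KO libraries. These 2 classes overlapped each other and lay above all libraries of the other tested classes. Myogenic-like cells had a mean of 136 ± 3.87 CPM, 0.872 times that of FAP-like cells at 156 ± 4.77 CPM, and lower in each of the 4 libraries.

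The ratio of *Dmd* to *Utrn* UMIs was above 1 in 3 classes and below 1 in the others. Myogenic-like cells held 2.66 ± 0.239 *Dmd* UMIs per *Utrn* UMI (range 2.33 to 2.90), glial-like cells 2.07 ± 0.121 and smooth muscle or pericyte-like cells 2.02 ± 0.143. The ratio was 0.257 ± 0.0190 in FAP-like, 0.302 ± 0.0434 in tenocyte-like, 0.238 ± 0.0653 in chondrocyte-like and 0.120 ± 0.0182 in endothelial-like cells. The UMIs of both genes also depend on transcript length and intron content, so the ratios order classes and do not measure which protein is more abundant.

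*Dag1*, the precursor of both dystroglycan subunits, was detected in every class. It stood at 499.6 and 439.6 CPM in WT and 471 and 441 CPM in KO libraries in glial-like cells. In myogenic-like cells it stood at 426 and 387 CPM in WT and 398 and 385 CPM in KO libraries. Each library of both classes lay above all libraries of the other named classes, whose means ran from 46.1 CPM in mast-like to 125 CPM in smooth muscle or pericyte-like cells. The mean in myogenic-like cells was 3.69 times that in FAP-like cells, 108 ± 3.01 CPM.

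The 4 sarcoglycan genes did not share a pattern over the classes. *Sgca*, α-sarcoglycan, had few UMIs, 1222 in all kept cells, of which 794 lay in myogenic-like cells. It stood at 13.7 and 11.4 CPM in WT and 10.6 and 9.98 CPM in KO libraries there. FAP-like cells stood at 1.28 and 1.22 CPM in WT and 1.13 and 1.06 CPM in KO libraries, on 239 UMIs, and the mean log2 ratio of myogenic-like to FAP-like cells was 3.28 ± 0.09. Its next highest class was smooth muscle or pericyte-like cells at 2.47 ± 1.44 CPM on 47 UMIs.

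*Sgce*, its paralogue with a wide range of expressing tissues, was highest in FAP-like cells. These stood at 134 and 112 CPM in WT and 132 and 109.8 CPM in KO libraries. Myogenic-like cells stood at 67.6 and 62.5 CPM in WT and 64.9 and 54.1 CPM in KO libraries, a mean log2 ratio to FAP-like cells of -0.97 ± 0.09. The number of *Sgca* UMIs per *Sgce* UMI was 0.183 ± 0.0163 in myogenic-like and 0.00967 ± 0.000950 in FAP-like cells, and in no tested class outside the myogenic-like cells did a library exceed 0.0714, the value of a single mast-like library.

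*Sgcd*, δ-sarcoglycan, which pairs with *Sgcb* in the core of the complex, was lowest in myogenic-like cells. It stood at 27.5 and 25.1 CPM in WT and 25.9 and 28.9 CPM in KO libraries there. FAP-like cells stood at 400.1 and 400.1 CPM in WT and 369.6 and 376 CPM in KO libraries. The ranges lay far apart, with a mean log2 ratio of myogenic-like to FAP-like cells of -3.85 ± 0.12. Glial-like (515 ± 39.2 CPM), chondrocyte-like (383 ± 31.3), mast-like (340.1 ± 55.3) and tenocyte-like cells (317 ± 32.3) were also high, whereas endothelial-like (34.3 ± 9.50) and macrophage-like cells (31.1 ± 9.09) overlapped the range of myogenic-like cells. The summed level of 9 FAP marker genes was 27384 CPM in FAP-like, 10664 in glial-like, 1425 in mast-like and 1622 in endothelial-like cells. The part of FAP RNA in the *Sgcd* level of other classes was not tested.

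*Sgcb*, β-sarcoglycan, varied least between myogenic-like and FAP-like cells. Myogenic-like cells stood at 59.1 and 61.6 CPM in WT and 59.8 and 61.3 CPM in KO libraries. FAP-like cells stood at 66.1 and 59.8 CPM in WT and 61.4 and 59.9 CPM in KO libraries. The ranges overlapped, with a mean log2 ratio of -0.03 ± 0.09. The other tested classes ran from 9.86 CPM in macrophage-like to 52.0 CPM in chondrocyte-like cells.

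*Dtna*, α-dystrobrevin, followed *Dmd*. Glial-like cells stood at 62.5 and 75.8 CPM in WT and 80.4 and 83.3 CPM in KO libraries. Myogenic-like cells stood at 54.9 and 39.0 CPM in WT and 49.8 and 48.2 CPM in KO libraries. Smooth muscle or pericyte-like cells came next, at 19.6 and 14.1 CPM in WT and 22.3 and 18.4 CPM in KO libraries. Every library of these 3 classes lay above every library of the other tested classes, whose means were 1.51 to 5.23 CPM. Over 13 classes and stages the Pearson correlation of log2(CPM + 1) between *Dtna* and *Dmd* was 0.953. *Dmd* was the gene most like *Dtna* of 12781 genes that reached 10 CPM, and *Dtna* the gene most like *Dmd*. The points share libraries and differ in depth, and the value is descriptive.

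Counts per cell pointed the same way when each cell was thinned to 2000 UMIs, which left out 129 shallower cells (48 WT and 81 KO). *Dmd* was then detected in 71.8% ± 4.59 of glial-like cells and 39.3% ± 4.31 of progenitor-like cells, against 1.78% ± 0.341 of macrophage-like cells, taken as the class that should lack it (unthinned 96.2%, 65.1% and 5.97%). *Sgcd* was detected in 36.0% ± 4.92 of mast-like and 43.3% ± 1.30 of FAP-like cells, against 2.51% ± 0.230 of macrophage-like cells (unthinned 75.3%, 79.2% and 8.01%). *Sgca* was detected in 2.69% ± 0.844 of progenitor-like and 2.28% ± 0.332 of myoblast-like cells, 0.228% ± 0.132 of FAP-like and 0.0776% ± 0.155 of macrophage-like cells, so most myogenic-like cells held no *Sgca* UMI at this depth (unthinned 10.9%, 13.7%, 1.24% and 0.613%).

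**Figure D2:**
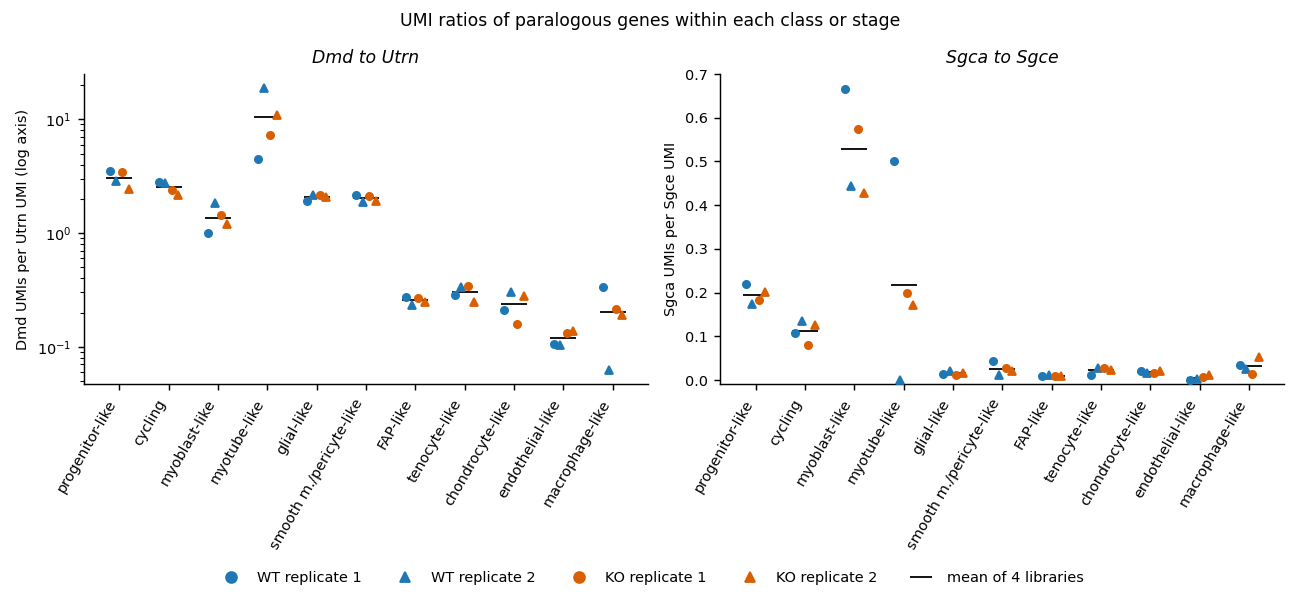
UMIs of *Dmd* per UMI of *Utrn* (left, log axis) and of *Sgca* per UMI of *Sgce* (right, linear axis) in classes and myogenic stages. Points are the 2 WT and 2 KO libraries, and dashes are means of 4 libraries. The *Dmd* ratio is above 1 in glial-like and smooth muscle or pericyte-like cells and in most libraries of the myogenic stages, and below 1 in the other classes.

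The 250 bases upstream of the RefSeq transcript starts (GRCm38.p6, 6 of 8 members matched) are shown for *Sgca* and *Dag1*, whose levels were higher in myogenic-like than in FAP-like cells, and for both *Dmd* starts in the table. Both *Dmd* starts are shown because 3′ counts of *Dmd* pool transcripts from all starts. Capitals mark E-boxes (CANNTG, the motif bound by myogenic bHLH factors, read the same on both strands).
Sgca, chr11:94976328-94976577, minus strand: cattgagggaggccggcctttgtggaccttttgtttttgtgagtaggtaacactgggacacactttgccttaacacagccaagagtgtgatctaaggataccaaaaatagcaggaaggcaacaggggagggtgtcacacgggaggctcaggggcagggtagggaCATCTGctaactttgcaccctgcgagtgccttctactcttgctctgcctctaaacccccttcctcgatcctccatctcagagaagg
Dag1, chr9:108263959-108264208, minus strand: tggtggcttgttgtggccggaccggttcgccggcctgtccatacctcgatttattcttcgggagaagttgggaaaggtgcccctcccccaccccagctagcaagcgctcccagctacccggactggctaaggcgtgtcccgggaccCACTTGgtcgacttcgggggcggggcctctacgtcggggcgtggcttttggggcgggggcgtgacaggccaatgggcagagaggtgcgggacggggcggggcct
Dmd, start of the full-length gene, chrX:82948620-82948869, plus strand: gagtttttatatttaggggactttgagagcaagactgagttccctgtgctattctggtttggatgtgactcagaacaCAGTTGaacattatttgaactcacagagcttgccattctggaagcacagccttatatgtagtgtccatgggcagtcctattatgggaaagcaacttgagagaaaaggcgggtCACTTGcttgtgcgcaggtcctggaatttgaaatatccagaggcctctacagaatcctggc
Dmd, start within the gene, chrX:85048045-85048294, plus strand: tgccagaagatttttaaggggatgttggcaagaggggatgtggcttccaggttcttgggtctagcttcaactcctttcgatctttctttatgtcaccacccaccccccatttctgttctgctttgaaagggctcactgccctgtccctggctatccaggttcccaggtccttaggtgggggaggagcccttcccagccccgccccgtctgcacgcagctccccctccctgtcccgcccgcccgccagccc
The windows of *Sgca* and *Dag1* hold 1 E-box each, the upstream *Dmd* window 2 and the internal *Dmd* window 0. Among windows not shown, that of *Utrn* (chr10:12861736-12861985) holds 7 and that of *Sgcd* (chr11:47379326-47379575) 2. Both of these windows lie inside their genes and not at the annotated gene start, and the *Sgcd* window overlaps *Sgcd* exons over 197 bases. Both genes were lower in myogenic-like than in FAP-like cells. The *Sgcb* window holds 0, and that of a further *Dag1* start holds 1. Whether the number of E-boxes goes with the level in myogenic-like cells was not tested. E-boxes are common, since 66.2% of 32851 promoters of the same length hold at least 1. The forms CAGCTG (13% of promoters) and CAGGTG or its complement CACCTG (17.2%) occur in none of these windows. The internal *Dmd* window lies inside the gene and overlaps no *Dmd* exon, and is richer in G and C (60%) than the upstream one (45.2%). *Dmd* itself spans chrX:82948870-85206141 on the plus strand (GENCODE vM21), *Utrn* chr10:12382188-12869365, *Dag1* chr9:108204634-108263958, *Sgca* chr11:94962791-94976327, *Sgcb* chr5:73632749-73647790, *Sgcd* chr11:46896253-47988969 and *Sgce* chr6:4674350-4747207, these on the minus strand.

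Along the myogenic stages *Dmd* was not monotonic. Progenitor-like cells stood at 495 and 367 CPM in WT and 427 and 311 CPM in KO libraries. Cycling cells, which were led by cell cycle genes, had a mean of 388 ± 48.4 CPM. No stage marker reached 1.5-fold in them over the other myogenic-like cells, which does not mean that the markers were absent. Myoblast-like cells stood at 121 and 200.1 CPM in WT and 159 and 126 CPM in KO libraries. Myotube-like cells stood at 1005 and 2304 CPM in WT and 475 and 1629.9 CPM in KO libraries. Each library had less in myoblast-like than in progenitor-like cells, with a mean log2 ratio of -1.41 ± 0.48, and more in myotube-like than in either, 1.55 ± 1.18 against progenitor-like cells. The means of *Utrn* ran from 112 to 154 CPM over the 4 stages, with myotube-like libraries spread over 65.1 to 226 CPM, and the *Dmd* to *Utrn* ratio went from 3.06 ± 0.512 in progenitor-like through 1.37 ± 0.364 in myoblast-like to 10.4 ± 6.20 in myotube-like cells.

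**Figure D3:**
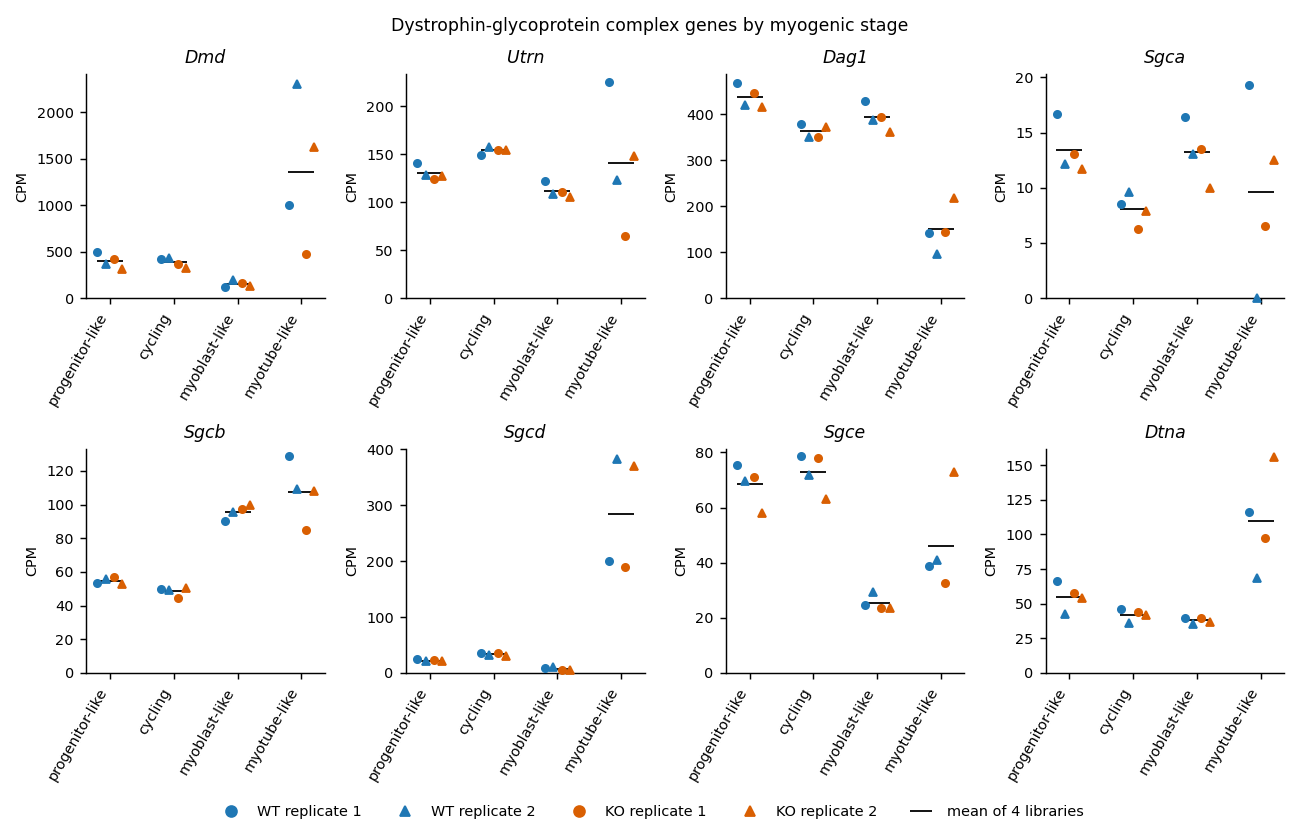
Level of each member by myogenic stage. The vertical axes are CPM from 0, points are the 2 WT and 2 KO libraries, and dashes are means of 4 libraries. *Dmd* and *Sgcd* are lowest in myoblast-like cells and higher in myotube-like cells, *Sgcb* is higher in myoblast-like than in progenitor-like cells, and myotube-like libraries hold 11 to 31 cells each.

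*Sgcd* had the same dip. It stood at 24.5 and 21.2 CPM in WT and 22.6 and 21.0 CPM in KO libraries in progenitor-like cells. Myoblast-like cells stood at 8.59 and 11.4 CPM in WT and 6.18 and 4.85 CPM in KO libraries, and myotube-like cells at 199.7 and 382 CPM in WT and 189 and 369 CPM in KO libraries. The mean log2 ratio was -1.60 ± 0.53 for myoblast-like and 3.60 ± 0.64 for myotube-like against progenitor-like cells, with the same direction in 4 of 4 libraries. The myotube-like value rests on 235 UMIs, and the FAP marker sum there was 1434 CPM, against 331 CPM in myoblast-like cells. Endothelial-like cells held 1622 CPM of these markers and 34.3 CPM of *Sgcd*. The part of FAP RNA in the *Sgcd* level was not tested in myotube-like or endothelial-like cells.

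*Sgcb* went the other way at the myoblast stage. Progenitor-like cells stood at 53.4 and 56.1 CPM in WT and 57.2 and 52.6 CPM in KO libraries. Myoblast-like cells stood at 90.0 and 95.3 CPM in WT and 97.5 and 99.7 CPM in KO libraries, higher in each library with a mean log2 ratio of 0.80 ± 0.08. Myotube-like cells had 108 ± 18.1 CPM, which overlapped the myoblast-like range. *Sgce* was lower after the same step, from 68.6 ± 7.39 to 25.3 ± 2.81 CPM, a mean log2 ratio of -1.44 ± 0.19 that was negative in each library. *Sgca* overlapped between progenitor-like (13.4 ± 2.24 CPM) and myoblast-like cells (13.3 ± 2.63 CPM), while cycling cells (8.09 ± 1.39 CPM) lay below every library of both. Its ratio to *Sgce* was higher in myoblast-like cells (0.528 ± 0.114) than in progenitor-like cells (0.195 ± 0.0208).

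*Dag1* was near level until the last stage. Progenitor-like cells had 437 ± 24.7 CPM, myoblast-like 393 ± 27.6 and cycling cells 362 ± 14.5. Myotube-like cells stood at 142 and 95.4 CPM in WT and 143 and 218 CPM in KO libraries, below all libraries of the other stages, on 138 UMIs. *Dtna* had 55.1 ± 9.95 CPM in progenitor-like, 38.0 ± 2.29 in myoblast-like and 109 ± 36.6 in myotube-like cells, and the range of the last lay above both. In myotube-like cells a few sarcomeric genes take a large share of the UMIs (the 11 myotube markers summed to 82826 CPM).

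Within single classes the members also differed between clusters. The smooth muscle or pericyte-like cells formed 2 clusters at the finer resolution, 1 led by *Myh11*, the smooth muscle myosin (752 cells), and 1 led by *Higd1b*, a pericyte-associated gene (996 cells). *Dmd* in the *Myh11* cluster was 613 and 546 CPM in WT and 545 and 526 CPM in KO libraries. In the *Higd1b* cluster it was 132 and 137 CPM in WT and 135 and 99.8 CPM in KO libraries. The *Myh11* cluster was 4.46-fold (range 4.0 to 5.27) higher for *Dmd*, 15.7-fold (range 10.4 to 27.2) for *Dtna*, 2.84-fold (range 2.06 to 4.26) for *Sgcd* and 1.57-fold (range 1.41 to 1.72) for *Utrn*. *Sgce* was 87.3 ± 8.10 CPM in the *Myh11* and 97.5 ± 13.4 CPM in the *Higd1b* cluster. *Sgca* was 5.29 ± 2.76 CPM in the *Myh11* cluster on 46 UMIs, and the *Higd1b* cluster held 1.

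Among the FAP-like clusters *Sgcd* had the widest range. It was 504 ± 14.6 CPM in the largest cluster, led by *Grm8* (9511 cells), 354 ± 20.8 in the cycling cluster led by *Mxd3* (2565 cells), 273 ± 37.8 in the *Ly6a* cluster (5149 cells) and 131 ± 3.78 in the *Ccl11* cluster (1454 cells). The *Grm8* cluster was 3.84-fold (range 3.74 to 3.89) higher than the *Ccl11* cluster. *Utrn* was highest in the *Ly6a* cluster, 218 ± 7.77 CPM against 116 ± 1.02 in the *Grm8* cluster. *Dmd* was 37.8 ± 2.84 and 38.2 ± 3.66 CPM in these 2 clusters.

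**Figure D4:**
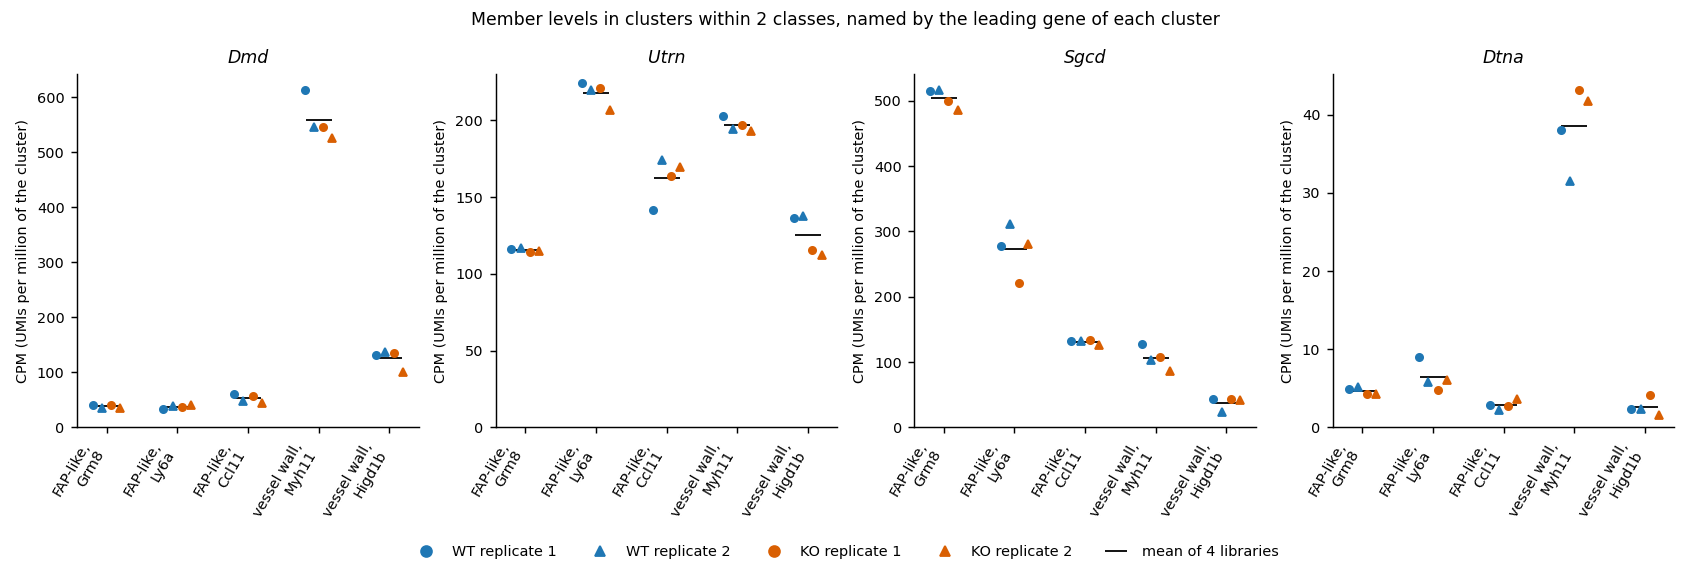
*Dmd*, *Utrn*, *Sgcd* and *Dtna* in clusters within the FAP-like and smooth muscle or pericyte-like (vessel wall) classes, each named by its leading gene. Vertical axes are CPM from 0, points are the 2 WT and 2 KO libraries, and dashes are means of 4 libraries. *Dmd* and *Dtna* are both higher in the *Myh11* than in the *Higd1b* cluster.

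Genes whose pattern over the 13 classes and stages was most like a member's were ranked by the same correlation. After *Dtna*, *Dmd* was most like *Tubb2b* (0.915) and *Dpysl5* (0.903). *Sgca* was most like *Pmpcb* (0.958), *Jsrp1* (0.957), which encodes a protein of the sarcoplasmic reticulum junction, and *Timm9* (0.954). *Utrn* was most like *Hspg2* (0.919), which encodes perlecan, a ligand of dystroglycan. The closest genes of *Dag1*, *Sgcb*, *Sgcd* and *Sgce* were *Ptpn21* (0.937), *Cand2* (0.959), *Arhgap20* (0.898) and *Ranbp17* (0.951). Between members, *Dmd* and *Dag1* correlated at 0.741 and *Dmd* and *Sgcd* at -0.00294.

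The partners of the complex had patterns of their own, given here for genes with the highest levels in myogenic-like cells of each list. *Sspn*, sarcospan, was 47.8 ± 4.42 CPM in myogenic-like and 40.5 ± 3.61 in FAP-like cells, and *Sgcz*, ζ-sarcoglycan, was highest in tenocyte-like cells (44.6 ± 6.55). Among cytoplasmic partners, *Sntb1* (β1-syntrophin) was 42.1 ± 7.27 CPM in myogenic-like, 158 ± 11.6 in glial-like and 2.59 ± 0.178 in FAP-like cells. *Sntb2* was 176 ± 11.6 CPM in FAP-like and 70.9 ± 3.48 in myogenic-like cells, and *Dtnb* was 36.7 ± 2.10 CPM in the latter. *Lama2*, the laminin chain of muscle basement membrane that dystroglycan binds, was 1294 ± 144 CPM in glial-like, 443 ± 79.6 in FAP-like and 372 ± 33.3 in myogenic-like cells. *Hspg2* was 599 ± 18.5 CPM in endothelial-like and 77 ± 2.68 in myogenic-like cells, and *Agrn*, agrin, was 6.20 ± 0.711 CPM in myogenic-like cells. Among genes for the dystroglycan sugar chain, *Dpm1* and *Dpm3*, which serve mannose donor synthesis, were 187 ± 4.94 and 80.3 ± 10.2 CPM in myogenic-like cells.

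To ask whether loss of *SYISL* altered these genes, the UMIs of a class were added up within each library and compared between KO and WT by edgeR's quasi-likelihood test, adjusted by Benjamini-Hochberg over all genes tested. With 15 comparisons and genes of low counts left out, 110 tests of members were made. None was called at an adjusted p under 0.05 (0 of 110 by edgeR, lowest adjusted p 0.678), beside 0.0135% of all 191995 gene tests. Of the 110, 5 had an unadjusted p under 0.05, beside 3.93% of all gene tests, and DESeq2 called 0 and had 2 at that unadjusted level.

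In myogenic-like cells 0 of 8 members and 0% of 14707 genes were called, and 3 members had higher and 5 lower estimates, with a median log2 fold change of -0.01 over members and 0.00 over all genes. *Dmd* stood at 410.2 and 367 CPM in WT and 357 and 312 CPM in KO libraries, so the genotypes did not overlap. The edgeR log2 fold change was -0.18 (SE 0.08), unadjusted p = 0.0670, adjusted p = 0.966. KO libraries lay both below both WT libraries for 3 of 8 members and 23.2% of all genes in this class, and both above for 0 members and 10.4%. An unadjusted p under 0.05 was found for 0 members and 3.83% of genes. Without KO replicate 2, the library high in *Xist*, the log2 fold change of *Dmd* was -0.10, and with the looser cell filter it was -0.09. The others were -0.25 (SE 0.14) for *Sgca*, -0.09 (SE 0.10) for *Sgce*, -0.01 (SE 0.07) for *Dag1*, -0.01 (SE 0.07) for *Utrn*, 0.05 (SE 0.08) for *Sgcb*, 0.10 (SE 0.11) for *Sgcd* and 0.10 (SE 0.14) for *Dtna*.

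In FAP-like cells 0 of 8 members and 0% of 18364 genes were called, and 0 members and 2.93% of genes had an unadjusted p under 0.05. KO libraries lay both below both WT libraries for 3 members (*Sgca*, *Sgcd*, *Dtna*) and 22.1% of genes, and both above for 0 members and 8.97%. *Sgcd* differed by -0.07 (SE 0.06) and the standard errors of the 8 members ran from 0.06 to 0.20, so differences of the order of these errors were not detectable. The test of a difference between the KO effects in myogenic-like and FAP-like cells gave -0.21 (SE 0.07) for *Dmd* (unadjusted p = 0.0110, adjusted p = 1.00), and 0% of 18091 genes were called and 3.06% had an unadjusted p under 0.05.

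**Figure D5:**
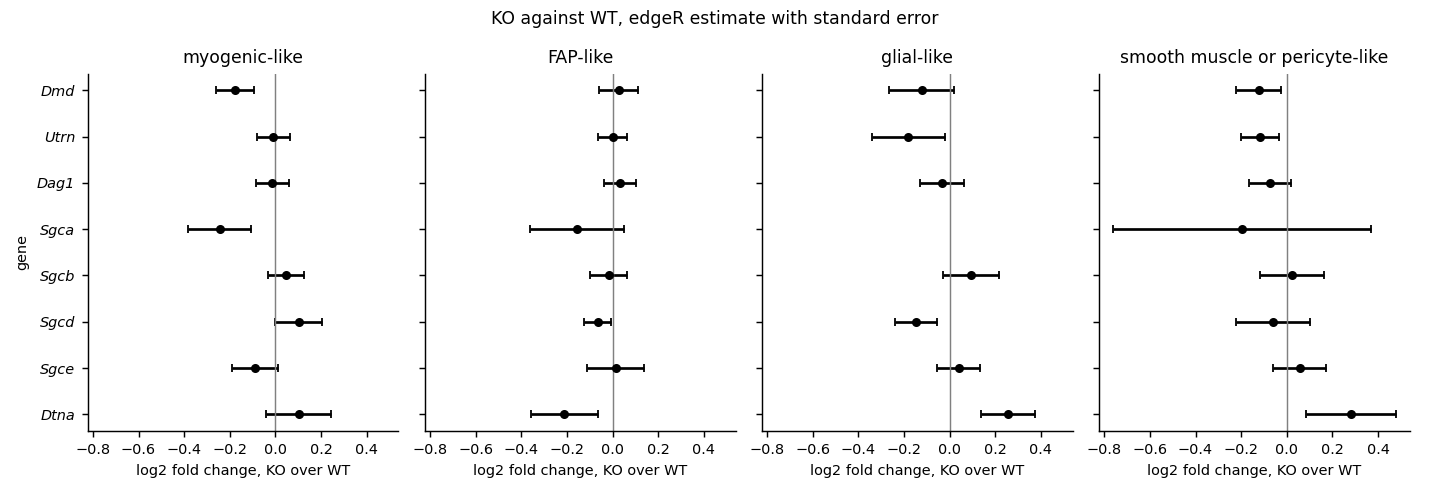
Log2 fold change of KO over WT for each member in 4 classes, with 2 libraries per genotype. Points are edgeR estimates, and bars are standard errors derived from the F statistic of the test. The vertical line marks no difference, genes too low to test are left blank, and no member was called in these classes.

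In the stages, *Dmd* in cycling cells had the lowest p-value. It stood at 422 and 433 CPM in WT and 366 and 331 CPM in KO libraries, both KO libraries below both WT libraries, with a log2 fold change of -0.27 (SE 0.07), unadjusted p = 0.00395 and adjusted p = 0.977. In these cells 0% of 12491 genes were called, and 4.28% had an unadjusted p under 0.05. *Dmd* differed by -0.18 (SE 0.16) in progenitor-like, -0.16 (SE 0.17) in myoblast-like and -0.69 (SE 0.57) in myotube-like cells, with overlapping libraries in each. Calls appeared when a library was left out, which leaves 1 sample in a group whose spread is then taken from the other group. Without KO replicate 1, where the library high in *Xist* stands alone for KO, *Dmd* was called in progenitor-like (-0.41, edgeR adjusted p = 0.0240) and cycling cells (-0.33, adjusted p = 0.0467). It was called in myoblast-like cells without WT replicate 1 (-0.45, adjusted p = 0.0329) and in myotube-like cells without KO replicate 2 (-1.85, adjusted p = 0.00695). *Sgcd* in myoblast-like cells, with the values given above by stage and 96 UMIs in all, differed by -0.84 (SE 0.32), unadjusted p = 0.0201 and adjusted p = 0.993, where 4.64% of 10397 genes had an unadjusted p under 0.05 and 0% were called.

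In the other classes *Sgcd* in endothelial-like cells had the lowest unadjusted p of the members. It stood at 28.8 and 25.1 CPM in WT and 36.9 and 46.5 CPM in KO libraries. The edgeR log2 fold change was 0.63 (SE 0.16), unadjusted p = 0.00286, adjusted p = 0.718, in a class where 0.017% of 11777 genes were called and 3.59% had an unadjusted p under 0.05. The summed level of the 9 FAP markers in the same cells was 1463 and 1086 CPM in WT and 1803 and 2137 CPM in KO libraries, and 8 of the 9 were higher in both KO than in both WT libraries. None of the 9 was at 0 in a library. Their part in the *Sgcd* difference was not tested. The log2 fold change of *Sgcd* was 1.19 with Scrublet doublets removed, 0.13 with the looser cell filter, and 0.79 without KO replicate 1, where edgeR called it (adjusted p = 0.00866). *Utrn* in macrophage-like cells stood at 111 and 89.2 CPM in WT and 74.0 and 77.2 CPM in KO libraries and differed by -0.38 (SE 0.15), unadjusted p = 0.0321, adjusted p = 0.998, beside 4.08% of genes at an unadjusted p under 0.05 and 0% called.

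In glial-like cells, where *Dmd* was highest among the classes, 0 of 7 tested members and 0% of 12822 genes were called. The differences were -0.12 (SE 0.14) for *Dmd*, 0.26 (SE 0.12) for *Dtna* and -0.15 (SE 0.09) for *Sgcd*. In smooth muscle or pericyte-like cells 0 of 8 members were called, where 0.135% of 12606 genes were, and *Dmd* differed by -0.12 (SE 0.10). In mast-like cells 0 of 6 tested members were called, against 0.0982% of genes. In chondrocyte-like and tenocyte-like cells no member was called either, against 0% of genes.

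With 2 libraries per genotype, groups that do not overlap were common among all genes, and the members' counts are given beside those shares. The 2 KO libraries were each higher than either WT library for 2 of 6 tested members in endothelial-like cells (*Dmd* and *Sgcd*, 13.7% of genes), 2 of 7 in glial-like cells (*Sgce* and *Dtna*, 14.5%), 1 of 8 in myoblast-like cells (*Sgcb*, 13.9%) and 1 of 6 in myotube-like cells (*Dag1*, 23%). It was 0 members in all kept (9.37%), chondrocyte-like (13.4%), macrophage-like (12.3%), mast-like (18.9%), smooth muscle or pericyte-like (15.1%), tenocyte-like (11.2%), progenitor-like (10.4%) and cycling cells (12.4%). Both KO libraries lay below for 2 members in all kept cells (*Utrn* and *Sgcd*, 26.1% of genes), 2 in smooth muscle or pericyte-like cells (*Utrn* and *Dag1*, 19%), 2 in cycling cells (*Sgca* and *Dmd*, 21.1%) and 2 in myoblast-like cells (*Sgcd* and *Sgce*, 18.9%). They did so for 1 member each in chondrocyte-like (*Dtna*, 16%), glial-like (*Sgcd*, 17.4%), macrophage-like (*Utrn*, 19.4%), progenitor-like (*Utrn*, 22.4%) and myotube-like cells (*Sgcb*, 16.4%), and for 0 in endothelial-like (16.8%), mast-like (18.7%) and tenocyte-like cells (18.9%).

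An unadjusted p under 0.05 was reached by 0 members in all kept cells, where 4.71% of 20419 genes reached it, and in chondrocyte-like (2.92%), glial-like (3.77%), mast-like (6.86%), smooth muscle or pericyte-like (5.47%), tenocyte-like (2.59%), progenitor-like (3.4%) and myotube-like cells (8.5%).

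For the 33 other genes of the pathway, 401 tests were made over the same 15 comparisons. None was called (0 of 401 by edgeR, lowest adjusted p 0.541), beside 0.0135% of all gene tests. An unadjusted edgeR p under 0.05 was reached in 15, beside 3.93% of all gene tests. DESeq2 called 0 and had 5 at that unadjusted level. In myogenic-like cells 10 of the 32 tested had higher and 22 lower estimates, with a median log2 fold change of -0.07 beside 0.00 over all genes. The share of all genes with lower estimates was not computed, so these counts are a description only.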

How the data were processed

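Per the labels, leg muscles of 4 libraries (2 WT, 2 KO) were profiled with the 10x Genomics droplet assay. The authors aligned reads to mm10 with Cell Ranger 7.2.0 and deposited unnormalised UMI counts per gene and cell. Whether intronic reads were counted is not stated, and the tool does so by default. Total deposited UMIs were 109653824 to 126257094 per library. The limits for a kept cell were 1000 to 6000 genes, 1000 to 25000 UMIs and less than 8% of UMIs from mitochondrial genes. Scrublet marked 1.65% to 2.56% of kept cells as doublets, and these were removed only as an alternative.

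Counts were scaled to 10000 per cell, log-transformed and clustered by Leiden (resolution 0.3, 3000 variable genes, 30 principal components, 20 neighbours) with scikit-learn 1.9.0, scanpy 1.11.5 and igraph 0.11.9, without batch correction. A class other than FAP-like needed at least 3 and at least 50% of its markers at 2-fold. A stage needed at least 3 of its markers at 1.5-fold. In both cases a marker counted only if detected in at least 10% of the cluster's cells. A cluster stayed unnamed where a second class came close, or where its leading genes or FAP marker levels spoke for another class. FAP-like clusters needed 3 FAP markers at 25% of the level in the highest cluster. These names are rebuilt and were not taken from the authors. Raw counts of a class were added up within each library, and the sums were tested with edgeR 4.0.16 (R 4.3.3), TMM factors and filterByExpr, at an adjusted p of 0.05, in myogenic-like cells, FAP-like cells, their interaction, the stages and each other class with at least 50 cells in every library. Standard errors (SE) given with edgeR estimates were derived from the test. Each is the absolute log2 fold change divided by the square root of the quasi-likelihood F statistic. DESeq2 1.42.0 was an alternative, and the edgeR step was tested on simulated data. Intervals and tests rest on 2 libraries per genotype.

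The 8 members were always named. Other pathway genes were named where called or among the 3 highest of their list in myogenic-like cells, and genes most like a member by the 3 highest correlations. Some results under this rule are not reported here. The clusters within classes were chosen after their values were seen. The members and lists were chosen with earlier results of these data known. All 41 gene IDs matched GENCODE vM21, and promoters came from RefSeq.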

Additional observations from a re-analysis of the deposited data

Results flagged for a closer look

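Among values resting on at least 20 UMIs, for 6 members the KO libraries were both higher than the WT libraries in one class or stage and both lower in a different one. These differences between classes were not tested. No member was called in the KO to WT tests made in these classes and stages. *Dtna* in endothelial-like cells, on 31 UMIs, was too low to be tested. Values are KO mean minus WT mean in CPM. *Dmd* differed by 8.66 in endothelial-like and -79.6 in cycling myogenic cells. *Dag1* differed by -7.81 in smooth muscle or pericyte-like and 62.2 in myotube-like cells. *Sgcb* differed by 5.92 in myoblast-like and -22.7 in myotube-like cells. *Sgcd* differed by 14.8 in endothelial-like cells, and by -27.4, -56.3 and -4.49 in FAP-like, glial-like and myoblast-like cells. *Sgce* differed by 1.5 in glial-like and -3.52 in myoblast-like cells. *Dtna* differed by 12.7 in glial-like and 0.617 in endothelial-like cells, and by -0.830 in FAP-like and -1.05 in chondrocyte-like cells. The share of all genes with opposite sides in this way was not computed, so the count of 6 members has no background and is a description only.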

How the results depend on the processing

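The log2 ratios of myogenic-like to FAP-like cells kept their direction for 7 of 8 members under all alternatives. *Sgcb*, near 0, was 0.015 with the looser cell filter and -0.055 to 0.013 with a library left out, and *Sgcd* was -3.55 with the looser filter. No alternative that kept all 4 libraries called a member. Leaving out 1 library called 0 to 1 members in the other classes and 0 to 2 in the stages. Counts of all genes called moved more. DESeq2 called 51 in all kept cells, 7 in FAP-like cells, 42 over the other classes, 1 over the stages and 3 in the interaction. Without a gene filter, 477 were called over the other classes (2 of them pathway genes), 55 over the stages and 25 in the interaction. In the other classes 11 were called without Scrublet doublets and 6 with the looser cell filter, and in the interaction 1 with RLE factors and 1 at resolution 1. With a library left out, genes called were 0 to 58 in all kept cells, 1 to 5 in myogenic-like, 0 to 7 in FAP-like, 314 to 513 over the other classes, 79 to 477 over the stages and 0 to 2 in the interaction, and pathway genes 1 to 3 over the other classes and 0 to 1 over the stages. The cause was not tested. Log2 fold changes of KO over WT that changed sign with a library left out ranged, in myogenic-like cells, from -0.052 to 0.035 for *Utrn* (0.0023 without a gene filter), -0.089 to 0.066 for *Dag1*, -0.21 to 0.023 for *Sgce* and -0.13 to 0.38 for *Dtna*. For *Dmd* they ranged from -0.33 to 0.062 in glial-like, -0.26 to 0.034 in smooth muscle or pericyte-like, -0.41 to 0.067 in progenitor-like, -0.45 to 0.23 in myoblast-like and -1.85 to 0.038 in myotube-like cells. The replicate numbers are shared by the genotypes but nothing states that they pair the samples, and deviations of same-numbered libraries correlated at 0.19 over all kept cells, 0.07 in myogenic-like and 0.18 in FAP-like cells. With the replicate number as a block, 37 genes were called in myogenic-like cells, 269 over the other classes and 24 over the stages, and no member. *Sgca* rests on 1222 UMIs in all kept cells, and each test rests on 2 libraries per genotype.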
